A study of Gallus gallus with 88 samples.

Results

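Cytosolic ribosomal protein genes were followed in pectoralis major, the breast muscle, of broiler chickens whose eggs had been warmed or cooled during incubation. A gene was taken in when its probe set carried a single gene symbol of the RPL or RPS series followed by a digit, or one of RPLP0, RPLP1, RPLP2 and RPSA. S6 kinase genes and names with a non-ribosomal ending were left out. This gave 53 genes out of 11528 named genes on the array, carried by 61 of 20706 probe sets, and the probe set with the highest mean stood for each gene. By symbol, 35 of these belong to the RPL series of the large (60S) subunit and 18 to the RPS series of the small (40S) subunit. Whether each product is part of the mature ribosome was not tested. A further 18 genes of the series, among them RPLP0, RPLP2, RPL5, RPL11 and RPS27, had no probe set with a single symbol and were not analysed here. RPSA was neither among these nor among the 53, and a probe set named RPSAP58 was left out by its name.

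Each of 88 arrays measured 1 animal. Eggs of every group were incubated at 37.8 °C outside the treatment interval. At embryonic day 10 there were 8 arrays each from embryos held at 38.8 °C (warm), 37.8 °C (control) or 36.8 °C (cool) on days 7 to 10. At embryonic day 13 there were 8 each from embryos held at the same temperatures on days 10 to 13. At post-hatch day 35, after rearing in a barn on a standard diet, there were 8 arrays from each combination of warm or cool with the early or late interval and 8 from controls. The day 35 controls of both intervals were pooled as 1 group, and most of them carried the label of the late interval. Neither a strain nor the sex of an animal is among the labels used here. The tissue is whole muscle, so fewer cells of a type and less RNA per cell cannot be told apart. ACTA1, the skeletal muscle actin, ranked at the 99.8 percentile of all probe sets on day 10, and higher at the later ages. Other muscle markers ranked from 65.7 (MYOG) to 98.2 (TTN) on day 10. Between day 13 and day 35 MYOD1 went from 96.9 to 93.2 and MYOG from 75.1 to 63.6. TNNC2, TNNI2, TNNT3 and TTN ranked higher at day 35. Cartilage matrix genes were also detected: their list mean ran from 8.62 to 10.05 log2 on day 10 control arrays and from 6.57 to 7.28 on day 13 control arrays.

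The median array signal lay between 7.56 and 8.13 log2 on day 10, between 7.68 and 7.97 on day 13 and between 6.32 and 6.76 at day 35. Levels were therefore compared only among embryo arrays or only among day 35 arrays, and between them ranks within each array were set side by side with no test. The sample listing places all warm arrays of an age beside 4 of its controls and all cool arrays beside the other 4 controls. At day 35 all controls beside the cool arrays carried the label of the late interval. No source used here says what these listing blocks stand for, and results with the block as a term are given where they change a call. The bioB control probe sets averaged above 8 log2 on 0 of 8 warm, 4 of 8 control and 4 of 8 cool arrays of day 13. Those 4 controls were the ones beside the cool arrays. On day 10 it held for 0 of 8 warm, 0 of 8 control and 2 of 8 cool arrays, and at day 35 for all. The part of this signal in the results was not tested.

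The cytosolic ribosome translates messenger RNA. Its large subunit forms peptide bonds and its small subunit reads the codons. Each consists of ribosomal RNA with a near-fixed set of proteins, most of which are needed in equal amounts. Ribosomal protein mRNAs are abundant in growing tissue, and in vertebrates their translation is regulated through the mTOR pathway. Several have paralogs with narrower expression: in mammals RPL3L, a copy of RPL3, is restricted to skeletal and cardiac muscle, and RPL22L1 is a copy of RPL22.

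Most of the chosen ribosomal protein probe sets ranked high on the arrays at every age. Each was taken as the brightest of its gene, and brightness depends on the probes as well as on the transcript, so ranks are read here as a change of a gene between ages and not as an order among genes. Of the 8 probe sets passed over, those of RPL17, RPL37, RPL12, RPL21 and RPL27A ranked at 43.2 or below on day 10, and those of RPL23, RPL9 and RPL3 at 80.8, 89.8 and 98.4. The median of the 53 genes' rank percentiles was 97.6 on day 10, 97.3 on day 13 and 96.6 at day 35. On day 10, 38 genes ranked above the 95th percentile and 46 above the 90th. The counts were 38 and 47 on day 13 and 33 and 44 at day 35. RPS2 ranked at 99.7, 99.6 and 99.6 and RPL37 at 99.6, 99.6 and 99.4. No gene was listed at 0 on any array.

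RPL3L was the exception, with opposite positions in the embryo and at day 35. Its log2 signal was 4.98 to 6.00 on the day 10 arrays, with a median of 5.56, and 4.99 to 6.15 on the day 13 arrays, with a median of 5.64. At day 35 it was 10.93 to 12.37, with a median of 11.99. In ranks, its median moved from the 12.3 and 13.3 percentile in the embryo to the 98.9 percentile. The highest embryo array stood at 21.4 and the lowest day 35 array at 97.4, so the ranges did not overlap. Embryo and day 35 ranks did not overlap for 6 of 53 genes, against 14.6% of all probe sets.

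RPL3, the general form of the same large subunit protein, went the other way. Its median rank was 99.0 on day 10 and 98.9 on day 13, and 92.8 at day 35, where the 40 arrays spanned 86.8 to 96.0. The lowest embryo array stood at 98.5, above every day 35 array. A second RPL3 probe set gave medians of 98.4, 98.3 and 91.6.

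**Figure D1:**
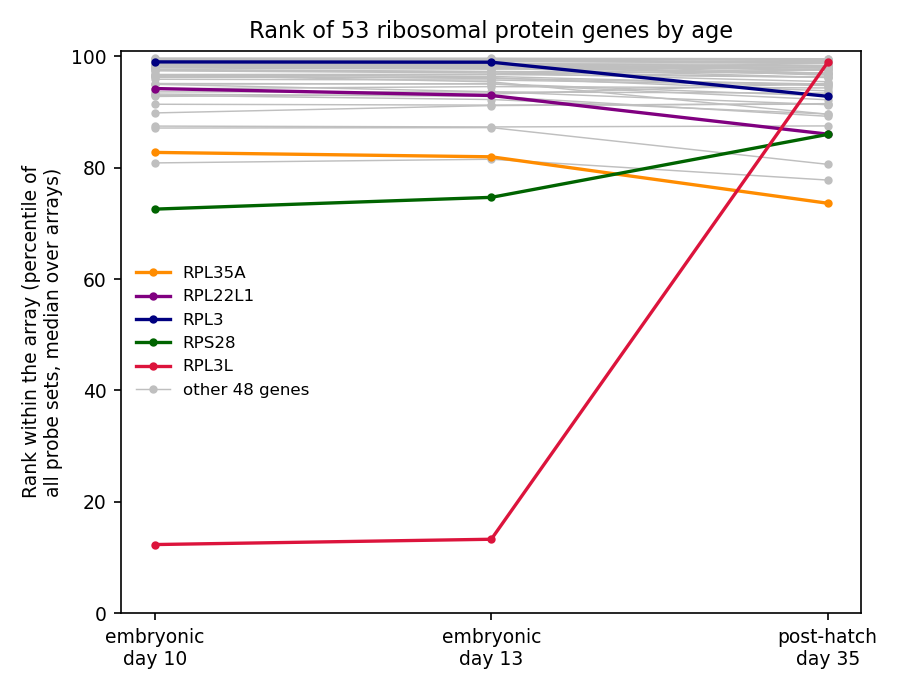
Rank of each of 53 ribosomal protein genes within the array (vertical axis, percentile of all probe sets, median over 24, 24 and 40 arrays) at the 3 ages (horizontal axis). RPL3L crosses from the 13.3 percentile on day 13 to the 98.9 percentile at day 35, while most lines stay near the top.

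At day 35 neither RPL3 nor RPL3L passed the threshold between incubation groups, which does not show that they were equal. RPL3L was 11.81 ± 0.31 log2 (SD, n = 8) in day 35 controls. Treated means were 11.67 ± 0.52 and 11.86 ± 0.39 after early and late warming, and 11.92 ± 0.23 and 12.08 ± 0.22 after early and late cooling. In the 6 comparisons between these groups its adjusted p lay at 0.546 or above, and that of RPL3 at 0.679 or above (limma, Benjamini-Hochberg over all probe sets). Between days 10 and 13 RPL3L differed by 0.07 ± 0.15 (SE) in controls, with an adjusted p of 0.779 (limma). Its signal was low on both days, and whether it was detected on them was not tested.

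Other genes shifted in rank by less than RPL3L. Between day 13 and day 35, 42 genes had a lower and 11 a higher median rank, with a median shift of -0.45 percentile points. The median rank was 97.3 on day 13, so most of the genes had little room to rise. The shares of all probe sets that moved down or up in rank were not counted. These counts and those below thus do not show a fall particular to these genes. Besides RPL3, 4 genes ranked lower by over 5 points: RPL35A (82.0 to 73.6), RPL22L1 (93.0 to 86.0), RPL31 (87.2 to 80.6) and RPL7L1 (95.4 to 89.6). RPL7L1 is a relative of RPL7 and was taken in by its symbol alone. Besides RPL3L, RPS28, a small subunit protein, ranked higher by over 5 points, from 74.7 to 86.0. Its arrays spanned 68.5 to 80.3 on day 13 and 80.9 to 91.5 at day 35. Day 13 and day 35 ranks did not overlap for 7 of 53 genes, RPS28 among them, against 19.7% of all probe sets. Of the 5 genes named as copies (RPL3L, RPL7L1, RPL22L1, RPL26L1 and RPL39L), RPL26L1 and RPL39L moved by 0.18 and -0.05 points. RPL22 itself moved by 0.17 points. RPL39L ranked at 99.2, 99.2 and 99.1, and RPL39 was not among the named probe sets.

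Between embryonic days 10 and 13 few ribosomal protein genes changed, while 9 of 10 muscle markers rose in controls. In control embryos 4 of 53 fell and 0 rose, against 17.2% of all probe sets lower and 9.65% higher. The median difference, day 13 minus day 10, was -0.03 log2 over the 53 genes and -0.02 over all probe sets. The share lower was thus below that of the array as a whole.

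RPL7L1 fell most. It read 11.49 to 11.97 in day 10 controls, with a median of 11.64, and 10.43 to 11.39 in day 13 controls, with a median of 11.21. The groups did not overlap, which held for 7.79% of probe sets in this comparison. The difference was -0.56 ± 0.12 (SE, adjusted p = 0.000459, limma), and it passed with each of 16 arrays left out in turn. Taken within the listing blocks, it was -0.67 beside the warm arrays and -0.45 beside the cool arrays, where the adjusted p was 0.0730.

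RPS29, a small subunit protein, was 12.45 ± 0.37 (SD, n = 8) in day 10 controls and 11.91 ± 0.13 in day 13 controls. Every day 13 array lay below the day 10 mean, though the lowest day 10 array, at 11.83, fell among them. The difference was -0.54 ± 0.19 (SE, adjusted p = 0.0267, limma), and -0.63 to -0.48 with an array left out. It did not pass without day 10 control array 63, 64 or 70. Within the block beside the warm arrays it was -0.31 (adjusted p = 0.360, limma) and beside the cool arrays -0.77 (adjusted p = 0.0724). RPS13 (-0.20 ± 0.07, adjusted p = 0.0257, limma) and RPS27A (-0.16 ± 0.06, adjusted p = 0.0279), which is made as a fusion with ubiquitin, also fell. Each of these passed in 10 of 16 fits that left out an array, and the count of genes called fell to 2 or 1 without day 10 control array 63, 64, 65 or 70 or day 13 control array 91. Within the block beside the warm arrays RPS13 was at -0.10 and RPS27A at -0.05 (adjusted p of 0.571 and 0.776, limma). Beside the cool arrays they were at -0.30 and -0.28 (adjusted p of 0.0254 and 0.0268, limma). The bioB control probe sets averaged 9.11 to 9.37 log2 on that block's day 13 controls and 6.19 to 7.13 on its day 10 controls. In the block beside the warm arrays they averaged 6.57 to 7.44 on day 13 and 6.75 to 7.31 on day 10. The part of this difference in the falls was not tested.

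**Figure D2:**
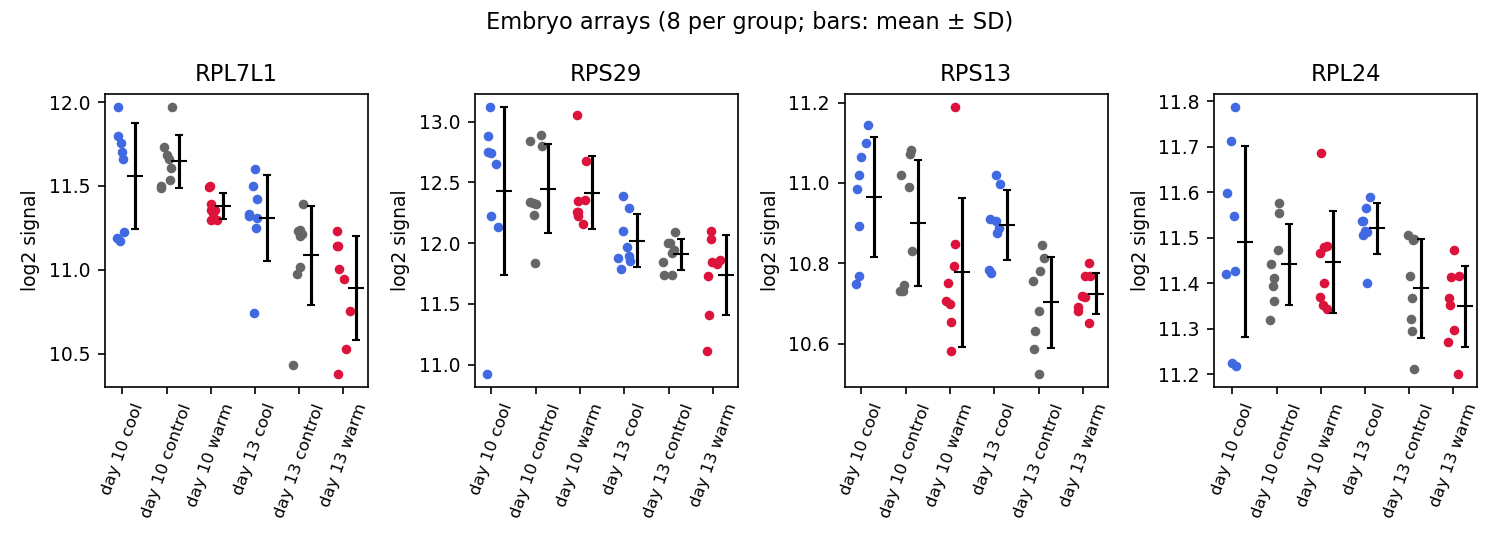
Log2 signal of RPL7L1, RPS29, RPS13 and RPL24 (vertical axes) on each embryo array, by age and incubation temperature; bars are mean ± SD over 8 arrays. RPL7L1 lies lower on day 13 than on day 10 in the control and warm groups, and RPL24 and RPS13 lie lower on warm than on cool day 13 arrays.

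In warm embryos 3 of 53 genes fell between days 10 and 13 and 0 rose, against 14.4% of all probe sets lower and 8.4% higher. RPS29 fell from 12.42 ± 0.30 to 11.74 ± 0.33 (SD, n = 8), and its day 10 arrays, from 12.15 upward, all lay above its day 13 arrays, which reached 12.10. RPL7L1 fell from 11.38 ± 0.08 to 10.89 ± 0.31, again with no overlap. Groups did not overlap at 7.34% of all probe sets here. The differences were -0.68 (adjusted p = 0.0058, limma) and -0.49 (adjusted p = 0.00276), and both passed with each array left out. RPL21 fell by 0.17 (adjusted p = 0.0473, limma), and it passed in 4 of 16 fits with an array left out. Its second, far dimmer probe set stood at 0.17 ± 0.22 (SE), and the mean over both at -0.00095.

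In cool embryos 2 genes rose and 0 fell, against 14.4% of probe sets higher and 12.1% lower. RPS28 rose from 9.06 ± 0.26 to 9.41 ± 0.22 (SD, n = 8), by 0.35 ± 0.10 (SE, adjusted p = 0.00912, limma). RPS3, a small subunit protein at the mRNA entry channel, rose from 12.91 ± 0.09 to 13.03 ± 0.06 (adjusted p = 0.0154). For each of them 7 of 8 day 13 arrays lay above the day 10 mean, and both passed with each array left out. RPS3 did not pass after quantile normalization (0.09, adjusted p = 0.125, limma) or with only these groups fitted (adjusted p = 0.117). With quantile normalization 1 gene rose and 3 fell, and with the block as well 1 rose and 4 fell. RPL7L1 stood at 11.56 ± 0.31 and 11.31 ± 0.26, and RPS29 at 12.43 ± 0.69 and 12.02 ± 0.22, neither past the threshold.

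These lists are not shown to differ between temperatures. The test of the difference itself (treated minus control on day 13, less the same on day 10) called 0 of 53 genes for warm and 0 for cool, and 0.0% of all probe sets (limma). At an unadjusted p under 0.05 it also held 0 ribosomal protein genes, against 3.88% of probe sets for warm and 2.95% for cool. Cartilage markers fell over the same days, in controls for 11 of 12 with a median of -2.16, in warm embryos for 9 and in cool embryos for 10. In controls 3 of 5 adipocyte markers rose (ADIPOQ at 1.73) and 1 fell (LEPR at -0.46). Of 9 erythroid markers 3 fell (HBE at -3.25, HBAD at -0.31 and HBA1 at -0.23). Of 12 fibroblast and matrix markers 3 rose (among them POSTN at 0.58) and 4 fell (among them TNMD at -1.20). Of 11 immune cell markers 1 rose, and 0 of 8 epidermis markers passed (limma). Of all probe sets 17.2% were lower and 9.65% higher in controls. The shares were 14.4% and 8.4% in warm embryos, and 12.1% and 14.4% in cool embryos. The part of these cells in the ribosomal protein results was not tested.

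Genes that make ribosomes or serve translation were measured over the same days, and their counts in controls stand against 17.2% of all probe sets lower and 9.65% higher. Of 65 ribosome biogenesis genes measured, 19 fell and 0 rose in controls, with a median of -0.10. RRP9, a component of the U3 small nucleolar particle, fell by 0.48, MYBBP1A, a nucleolar protein, by 0.46 and NOLC1, a nucleolar phosphoprotein, by 0.37 (adjusted p of 4.99e-06, 4.02e-05 and 2.86e-05, limma). The list gave 20 falls and 1 rise in warm embryos, and 11 falls and 3 rises in cool embryos. RRP9 fell in both, by 0.49 and 0.43. The shares of all probe sets were 14.4% lower and 8.4% higher in warm embryos, and 12.1% lower and 14.4% higher in cool embryos.

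Of 9 genes of RNA polymerase I, which transcribes the large ribosomal RNAs, 2 fell in controls, against 17.2% of all probe sets: POLR1C by 0.27 and POLR1B by 0.19. Of 30 initiation factor genes, 7 fell and 1 rose. EIF4G1 and EIF4G3, scaffolds of the cap-binding complex, fell by 0.31 and 0.33. EIF2B2, a subunit of the exchange factor for EIF2, fell by 0.38. Of 8 genes on the list of elongation factors, 3 rose and 1 fell. EEF1A2, the elongation factor form of adult muscle and nerve in mammals, rose by 1.41 ± 0.13 (SE, adjusted p = 1.17e-11, limma), from 10.62 ± 0.32 to 12.03 ± 0.12 (SD, n = 8). TPT1, which is on this list but is not itself an elongation factor, rose by 0.26. EEF1D, which recharges the elongation factor with GTP, rose by 0.14.

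Among 23 genes of mTOR and translation control, 6 rose and 5 fell in controls, against 9.65% and 17.2% of all probe sets. TSC1 and DEPTOR, which restrain mTOR signalling, rose by 1.1 ± 0.09 and 0.89 ± 0.10 (SE, adjusted p = 4.25e-13 and 1.67e-09, limma). MYC, a transcription factor that drives ribosome production, fell by 0.65 ± 0.08 (adjusted p = 2.93e-09, limma). In warm embryos TSC1 rose by 0.93, DEPTOR by 0.64, and MYC fell by 0.59. In cool embryos the values were 1.09, 0.91 and -0.54. Of the other ribosome components listed, 1 of 4 was measured, and it did not pass in any of the 3 groups.

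Few ribosomal protein genes passed the threshold between groups of unlike incubation temperature, and none passed against the controls. Warm and cool arrays lie in different listing blocks, so a direct difference between them cannot tell temperature and block apart. A block term rests on the controls alone, 4 in each block of an age, and widens the standard errors of warm minus cool. On day 10 the warm embryos had 0 of 53 genes called against control, and the cool embryos 0, with 0.0% of all probe sets called in either. At an unadjusted p under 0.05, warm held 2 genes (background 6.29%) and cool 0 (background 2.36%). The gene with the smallest p was RPL7L1, at 11.38 ± 0.08 in warm and 11.65 ± 0.16 in control embryos (SD, n = 8, adjusted p = 0.628, limma). RPS24 was at 12.31 ± 0.06 in warm embryos, above 12.16 ± 0.14 in controls and 12.10 ± 0.15 in cool embryos. Warm minus cool it was 0.20 ± 0.07 (SE, adjusted p = 0.0988, limma). With the listing block as a term RPS24 was at 0.05 ± 0.11 warm minus cool (SE, adjusted p = 0.986, limma). Warm minus control it was then at 0.07 ± 0.08. Warm against cool also called 0 of 53, with 0.0338% of probe sets called.

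On day 13, 48 of 53 genes had a higher mean in cool than in control embryos, against 57.7% of all probe sets, and the median difference was 0.06 against 0.03. The genes tend to move together on an array (median correlation between pairs 0.411 on day 13), so neither this count nor the like ones below stand for 53 separate observations. None was called (limma), as against 0.00483% of probe sets, and 6 had an unadjusted p under 0.05 (background 14.2%). RPS13 had the smallest p, with 10.89 ± 0.09 in cool and 10.70 ± 0.11 in control embryos (SD, n = 8, adjusted p = 0.0932, limma), and all 8 cool arrays lay above the control mean. RPL31 followed at 10.26 ± 0.08 and 10.08 ± 0.16 (adjusted p = 0.208). The median was 0.03 without day 13 control array 91, the array of lowest correlation at that age, and 0.03 after quantile normalization. Warm minus control had a median of -0.0024, with 25 genes higher, against 64.9% of probe sets, and 0 called (background 0.00483%). At an unadjusted p under 0.05 it held 1 gene (background 12.3%), RPS3, at -0.07 ± 0.04 (SE).

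Warm against cool on day 13 was the comparison between temperatures that called genes: 3 of 53 were lower in warm embryos and 0 higher, against 2.34% and 3.54% of all probe sets. The median was -0.07 against 0.004 over all probe sets, and 44 genes were lower, while 51.1% of all probe sets were higher. RPS20 read 10.65 to 10.92 on warm arrays, with a median of 10.74, and 10.77 to 11.01 on cool arrays, with a median of 10.96. RPL24 read 11.20 to 11.47, with a median of 11.36, against 11.40 to 11.59, with a median of 11.53. RPS13 read 10.65 to 10.80, with a median of 10.72, against 10.78 to 11.02, with a median of 10.90.

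For each of these genes the ranges overlapped, and all 8 warm arrays lay below the cool mean. The differences were -0.18 ± 0.05, -0.17 ± 0.05 and -0.17 ± 0.05 (SE), with adjusted p of 0.0306, 0.0394 and 0.0409 (limma). With the listing block as a term 0 genes were called. RPS20 was then at -0.20 ± 0.08 (SE, adjusted p = 0.236, limma), RPL24 at -0.20 ± 0.08 (adjusted p = 0.244) and RPS13 at -0.09 ± 0.08 (adjusted p = 0.604). Leaving out an array gave 0 to 4 genes. RPS20 passed in 8 of 16 such fits, RPS13 in 6 and RPL24 in 4, and 0 genes passed without warm array 26, 27, 28, 32 or 36 or cool array 72 or 76. The left-out probe set RPSAP58 was also lower in warm than in cool embryos, at -0.16 ± 0.04 (SE, adjusted p = 0.0254, limma). It did not pass in the other comparisons, and it was not read with the block as a term.

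Beside this difference, cartilage markers were higher in warm embryos for 11 of 12, with 1 called (COL9A1, by 2.55), and their list mean was 6.72 to 9.45 on warm and 6.63 to 7.11 on cool arrays. No cartilage marker was at 0 on any of these arrays. Fibroblast and matrix markers were higher for 10 of 12, with 2 called (OGN by 0.41 and POSTN by 0.32, adjusted p of 0.00645 and 0.0201, limma), and of 10 muscle markers TTN was called, at 0.24 (adjusted p = 0.0165). The part of these cells in the result was not tested. Of 65 biogenesis genes 3 were lower and 1 higher in warm embryos, against 2.34% and 3.54% of all probe sets, with EMG1 at -0.33, BYSL at -0.24 and NOL10 at 0.31. The mTOR list gave MLST8, a subunit of the mTOR complexes, at -0.29 and EIF2AK2, a kinase that inhibits initiation, at 0.38, and EIF5A2 was lower by 0.24.

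**Figure D3:**
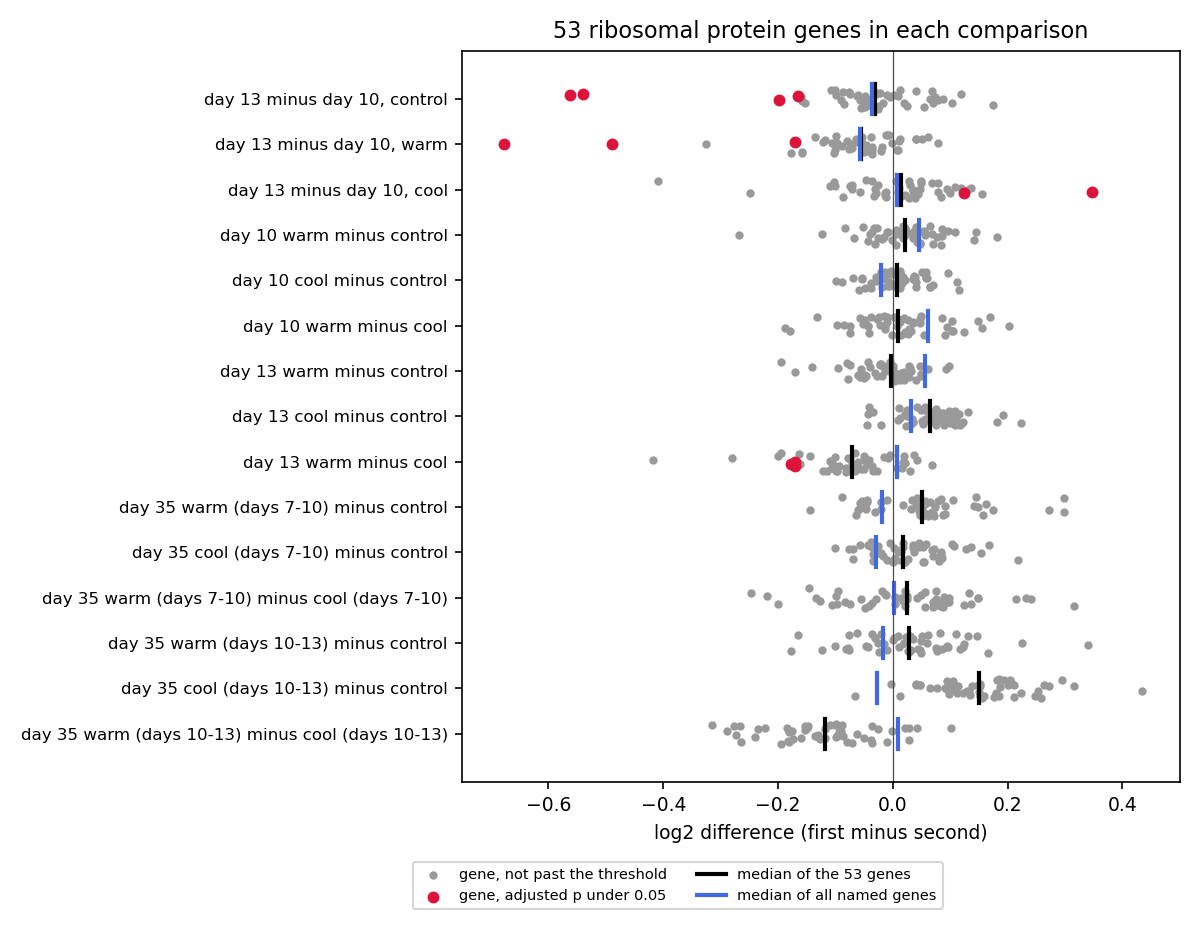
Log2 difference of each of 53 ribosomal protein genes (horizontal axis, first group minus second) in 15 comparisons (rows). Large points are genes past an adjusted p of 0.05, black bars the median of the 53 genes and blue bars that of all named genes. Calls lie in the changes between embryonic days and in day 13 warm minus cool, with none at day 35.

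At day 35 none of 53 genes passed in any of 6 comparisons between incubation groups (limma). The background was 0.0% of probe sets for each treatment against control, 0.295% for warm against cool in the early interval and 0.256% in the late interval. Counts at an unadjusted p under 0.05 were 1 and 0 of 53 after early warming and cooling (background 6.4% and 3.09%). They were 0 and 7 after late warming and cooling (background 3.14% and 6.37%). Warm against cool held 2 in the early and 5 in the late interval (background 13.2% and 9.74%).

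After late cooling 51 of 53 genes had a higher mean than in controls, against 47.8% of all probe sets, with a median of 0.15 against -0.01. RPL10A had the smallest p, with 11.28 ± 0.18 against 11.04 ± 0.20 (SD, n = 8, adjusted p = 0.698, limma). RPLP1, an acidic protein of the ribosomal stalk, was 10.24 ± 0.24 against 9.98 ± 0.27 (adjusted p = 0.748). The median over the 53 genes ran from 10.50 to 11.02 on late cool arrays and from 10.30 to 10.96 on control arrays. The groups overlapped over most of their range, and 3 late cool arrays, at 10.86 or above, stood apart from the other 5.

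Late warm against late cool shares the late cool arrays with that comparison. In it 48 of 53 genes were lower in warm animals, against 48.3% of all probe sets higher, with a median of -0.12. RPL15 was 10.15 ± 0.15 against 10.42 ± 0.23 (SD, n = 8, adjusted p = 0.388, limma). In the early interval medians were 0.05 for warm and 0.02 for cool against control. RPS28 was 9.08 ± 0.27 after early warming and 8.78 ± 0.24 in controls (adjusted p = 0.75, limma), and RPS2 was 12.78 ± 0.15 after early warming and 12.54 ± 0.21 after early cooling (adjusted p = 0.316). RPS2 changed sign with the block as a term. None of the lists of biogenesis, polymerase I, initiation, elongation or mTOR genes had a member called at day 35.

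**Figure D4:**
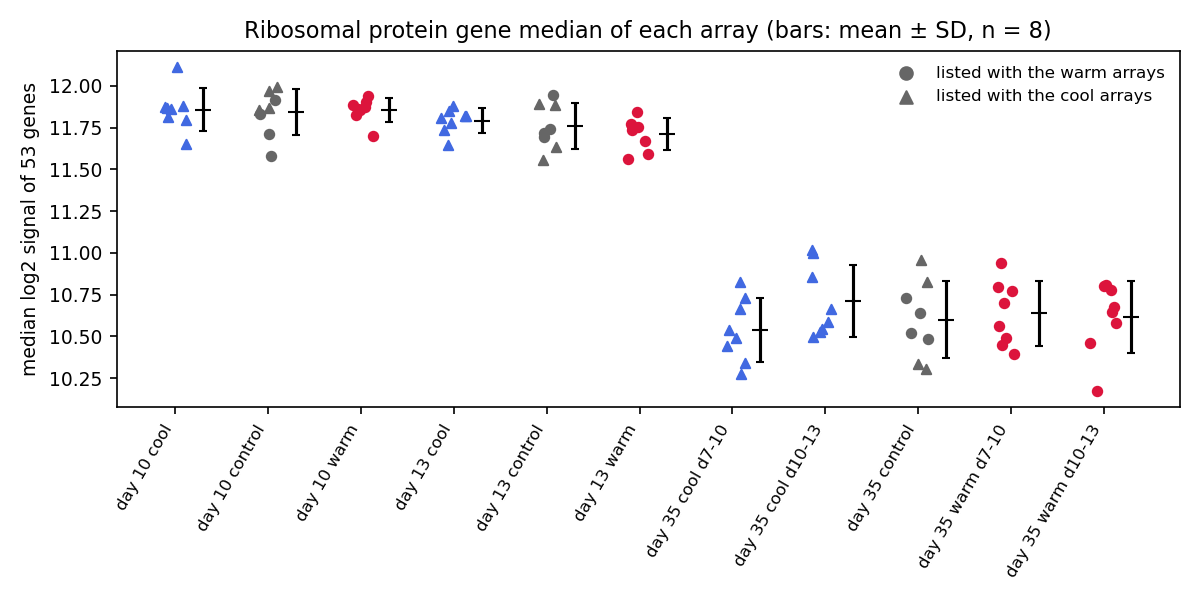
Median log2 signal over the 53 ribosomal protein genes on each array (vertical axis) by group; circles and triangles mark the 2 listing blocks and bars are mean ± SD, n = 8. Groups of an age overlap, and late cool arrays at day 35 reach 11.02. Embryo and day 35 levels are not on a common scale.

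The 53 genes varied less between arrays of a group than most probe sets, and they varied together. Their pooled SD within groups had a median of 0.140 log2 on day 10, 0.112 on day 13 and 0.209 at day 35, against 0.276, 0.201 and 0.344 over all probe sets. Of 53 genes, 48, 45 and 44 lay below that level. The chosen probe sets were bright, while all probe sets include dim ones. Spread was not compared among probe sets of like signal, so a lower SD is not shown to be particular to these genes. RPL37 was the steadiest embryo gene, with an SD of 0.055 and 0.033. Over 24, 24 and 40 arrays, after group means were removed, the median correlation between pairs of the genes was 0.474, 0.411 and 0.477. These pairs share arrays and their scaling, so the values are descriptive. RPL35 followed the median of the other genes closely at each age (r = 0.913, 0.892 and 0.916), while RPL3L did not (-0.24, -0.04 and 0.10). On day 10 and day 13 arrays RPL3L ranked low, at the 12.3 and 13.3 percentile. Whether it was detected there was not tested, so its embryo values do not show separate regulation. RPL32 ran against the others at day 35 (-0.35).

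RPL17, RPS6 and RPS23 had the highest pooled SD of the 53 genes at day 35, at 0.561, 0.495 and 0.462, while RPL37 was at 0.212. RPL22L1, of chromosome 9, came next at 0.460. On day 10 the highest was RPS29, of chromosome 5, at 0.483. On day 13 it was RPS23 at 0.390, but RPL3L and RPL7L1 (0.301 and 0.288) stood above RPL17 (0.278). RPS6, the small subunit protein that S6 kinases phosphorylate, RPS23, a protein of the decoding centre, and the large subunit proteins RPL17 and RPL37 lie on Z in assembly GRCg7b. In birds females carry a Z and a W chromosome and males a pair of Z chromosomes. The mean over 14 chromosome W probe sets split the arrays cleanly. On embryo arrays it was 4.77 to 5.66 (25 arrays) or 8.98 to 9.63 (23 arrays), and at day 35 it was 2.76 to 4.02 (20 arrays) or 6.83 to 7.59 (20 arrays). Each group held 4 of 8 arrays of high W signal, apart from day 10 cool with 3.

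RPS6 was lower on arrays of high W signal at every age. On day 10 it read 11.83 to 12.24 on them, with a median of 12.10, and 12.28 to 12.74 on the others, with a median of 12.52. On day 13 the ranges were 11.77 to 12.16 and 12.36 to 12.63, and at day 35 they were 10.33 to 11.04 and 11.32 to 11.91. The ranges did not overlap at any age, and the mean differences were -0.45, -0.55 and -0.86. RPS23 behaved alike, at -0.61, -0.69 and -0.80 with no overlap at any age. RPL17 was at -0.44, -0.47 and -0.99, and its ranges overlapped on day 10 but not later. RPL37 stood at -0.02, -0.02 and -0.21, with overlap at each age.

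The other 49 ribosomal protein genes had median differences of 0.04, -0.02 and -0.13, and 0 of them separated the arrays at any age. Over all probe sets the median differences were 0.03, -0.01 and -0.04. Non-overlap held for 0.517%, 1.3% and 0.396% of all probe sets. Over all 498 genes of chromosome Z the median differences were -0.29, -0.31 and -0.37, with 36, 133 and 22 genes not overlapping. The arrays were split on W signal and no test was run on these differences.

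A second probe set annotated to RPL17 went the opposite way. It read 11.38 to 11.82 on day 10 arrays of high W signal and 3.63 to 6.07 on the others. On day 13 it read 11.10 to 11.49 against 3.92 to 6.30, and at day 35 9.16 to 10.12 against 0 to 4.56. The direction was that of the W probe sets and opposite to the RPL17 probe set above. The arrays of low W signal read near the bottom of the scale, with 3 at 0 at day 35, so no size is given for the difference. No source used here gives the sequence that this probe set detects. The second RPL37 probe set, which was far dimmer, was at -0.56 on day 10 and -0.88 on day 13, with overlapping ranges. At day 35 it read 0 to 4.07 on arrays of high W signal and 1.93 to 5.42 on the others. As 1 array was at 0, no size is given for that age.

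**Figure D5:**
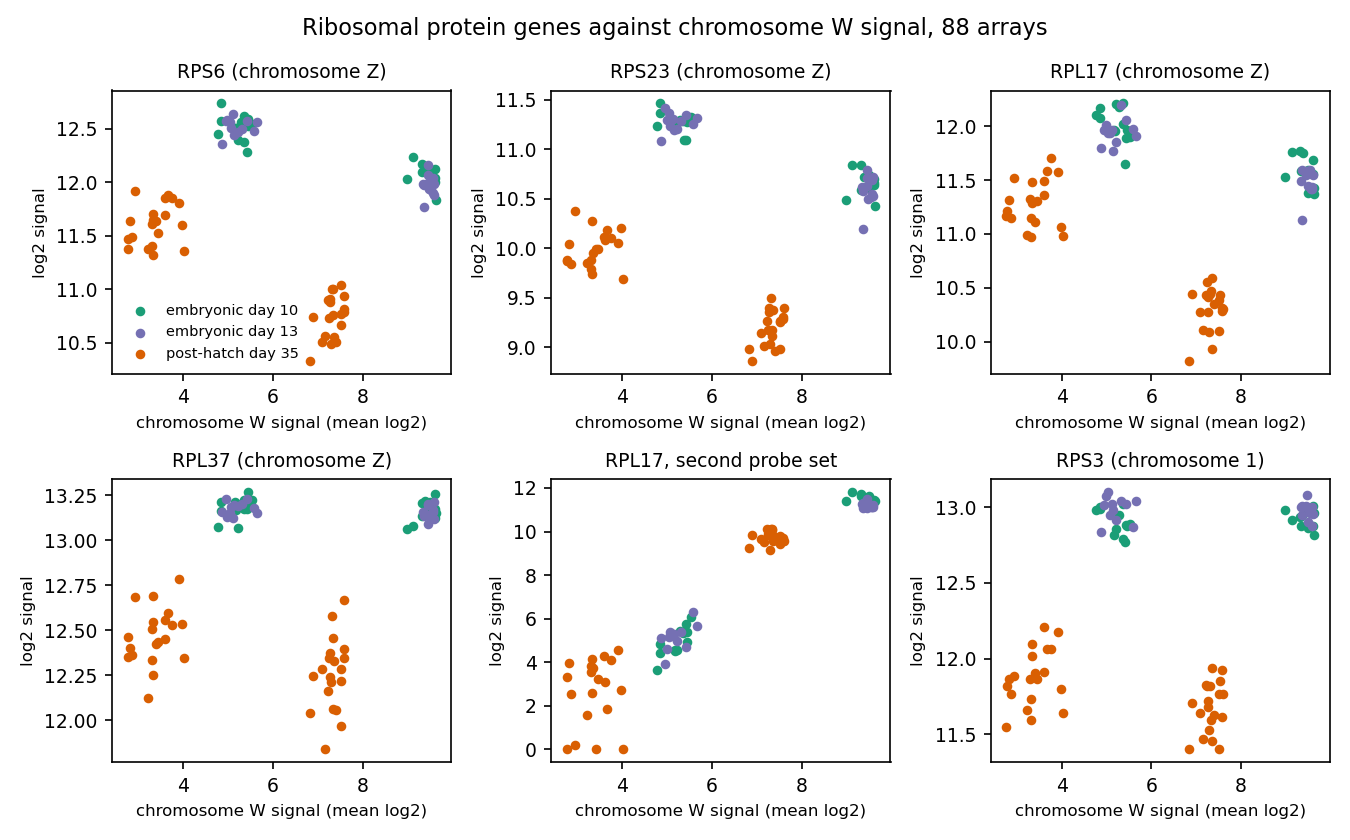
Log2 signal of RPS6, RPS23, RPL17, RPL37, the second RPL17 probe set and, for comparison, RPS3 of chromosome 1 (vertical axes) against the mean signal of 14 chromosome W probe sets (horizontal axes) on 88 arrays, coloured by age. Within an age, RPS6 and RPS23 are lower at high W signal and the second RPL17 probe set is higher, at 9.16 or above.

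With W signal as a covariate the standard error of the control change between days 10 and 13 shrank from 0.181 to 0.065 for RPS23, and from 0.141 to 0.055 for RPS6. Their differences were -0.04 and -0.06 with and without the covariate, and neither passed (adjusted p of 0.699 and 0.446 with it, limma).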

How the data were processed

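Breast muscle RNA of 88 animals was measured on 1-colour Affymetrix arrays. The authors deposited log2 signals per probe set as 2 copies, which differed in 0 values; the log2 scale is read from the values, which run from 0 upward to the mid teens. GCOS 1.1.1 is named per the submitters' processing notes, and no source used here gives the summarisation, normalization or annotation. Of 20804 rows 98 were controls, and 20706 probe sets were tested. The platform annotation gave 12300 probe sets 1 symbol, 256 several and 8150 none, and 11727 were updated through Entrez identifiers to GRCg7b names. Members and gene lists were chosen with earlier results of these data known.

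Groups came from the labels. The authors' log2 values were fitted in limma 3.58.1 (R 4.3.3) per age for temperatures and over 48 embryo arrays for age, two-sided, with Benjamini-Hochberg adjustment over all probe sets at 0.05. The fit was tested on simulated data. Named are up to 6 rises and falls past the threshold per comparison, otherwise the 2 smallest p in each direction, plus fixed paralogs, stalk proteins and chromosome Z genes, and up to 3 members per list. RPS28, RPL35A, RPL31, RPL35, RPL32, RPSAP58 and the second probe sets were named after their values were seen. Alternatives were block, normalization, filter, prior, samples, probe sets and W signal. Leaving out each array and within-block control changes were added after seeing the data. Arrays give no read depth, so their number limits precision.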

Additional observations from a re-analysis of the deposited data

Results flagged for a closer look

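Single arrays that stood far from the other 7 of their group (a gap above Dixon's 95% critical value for 8 samples) were found in 15 of 220 group checks over 19 named genes and the 53-gene median, and chance alone flags about 1 in 20 groups. On day 10, warm array 11 was high for RPL24 (11.69), RPS13 (11.19) and RPS27A (11.94), cool array 54 was low for RPS29 (10.93, with the next at 12.13), and control array 63 was low for RPL3 (12.32). On day 13, control array 41 was low for RPL7L1 (10.43), control array 42 for RPL22 (10.30) and control array 91 for RPLP1 (10.71). Cool array 79 was low for RPL7L1 (10.74), cool array 83 for RPL24 (11.40) and warm array 32 for RPL39L (12.43). At day 35, 1 late cool array was low for RPL7L1 (8.14) and high for RPL39L (12.40), late cool array 6 was low for RPL24 (9.88), and early warm array 11 was low for RPL22 (8.91). Early warm array 11 also had the lowest median correlation of its age, 0.9009.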

How the results depend on the processing

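Under the alternatives 206 counts of called genes stayed within 1.5 times the reported count and 30 did not, and all 172 medians moved by less than the spread between arrays. The 206 include the comparisons with 0 genes called, so they do not measure how stable the calls are. The spread between arrays had an SD of 0.137 log2 in day 13 controls and 0.231 in day 35 controls. These are wider than the median differences against those controls. A median could thus vanish and still be counted as unmoved, so the 172 do not measure how stable the medians are. Apart from day 13 cool against control, the 30 lay in the comparisons that called genes. Among single genes 522 values kept direction and call, 22 lost and 1 gained the call, and 23 changed sign; the cause was not tested. Control embryos gave 2 genes between days 10 and 13 with only their groups fitted, 2 without the arrays of lowest correlation, 1 within the block beside the warm arrays and 1 to 5 with an array left out. Warm embryos gave 5 with block and quantile normalization, 5 without dim probe sets, 5 with a trended robust prior, 5 with 1 probe set per gene and 2 to 4 with an array left out. Cool embryos gave 4 with quantile normalization (1 higher, 3 lower), 5 with block and quantile normalization (1 higher, 4 lower), 1 with only their groups fitted and 2 to 3 with an array left out. On day 13, cool against control gave 1 without dim probe sets (RPS13, adjusted p = 0.0345). Warm against cool gave 0 with the block, 0 with block and quantile normalization, 5 with quantile normalization, 7 without dim probe sets and 0 to 4 with an array left out.

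Signs changed only among genes that did not pass. With the block, and with block and quantile normalization, the values were as follows. On day 10, RPS13 stood at 0.0182 and 0.0162 (warm minus control) and at 0.0943 and 0.115 (warm minus cool), and RPL23 at 0.0108 and 0.0113 (cool minus control). At day 35, RPS2 stood at 0.0804 and 0.107 (early cool minus control), -0.121 and -0.147 (early warm minus cool), -0.0152 and -0.0277 (late warm minus control), and -0.261 and -0.250 (late warm minus cool). Late cool minus control gave RPL7L1 at 0.0263 and 0.0870, and 0.0549 with quantile normalization alone, and RPL32 at 0.00202 with both. With the block alone, RPS24 stood at 0.0249 (day 13 cool minus control), RPS20 at 0.0825 (early warm minus cool) and RPL39L at -0.0506 (late warm minus cool). With the mean over a gene's probe sets, RPL23 stood at 0.0166 (day 10 cool minus control) and RPL37 at 0.0399 (day 13 cool minus control). No paired analysis was possible because the numbers in the sample titles name single animals, and a number that recurs between groups marks different animals. Detection calls were not used here, so signal over background limits the dim probe sets.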
